A study of Mus musculus with 35 samples.

Results

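A set of 8 genes of adrenergic signalling in the heart was followed: the receptor genes Adra1a, Adra1b and Adrb1, the G protein alpha subunit genes Gnas and Gnaq, the adenylyl cyclase genes Adcy5 and Adcy6, and the receptor kinase gene Grk5. They were chosen by name, all 8 were found among the 27012 genes of a table of normalized counts, and all 8 lay above the filter on low values that 13695 genes passed. Noradrenaline and adrenaline bind receptors on the cardiomyocyte surface. Beta receptors act through the stimulatory subunit encoded by Gnas on adenylyl cyclases, and the cyclic AMP made there activates a protein kinase that strengthens and quickens the heartbeat, while alpha-1 receptors act through the subunit encoded by Gnaq on phospholipase C. Receptor kinases phosphorylate active receptors so that arrestins bind and end the signal, and this chain is known to be blunted in heart failure.

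The RNA came from the apex of mouse hearts, taken 3 days after transaortic constriction (TAC, a band around the aorta that loads the left ventricle) or sham surgery on 6-week-old mice of a mixed C57Bl/6/FVB strain. IRS1KO mice carried IRS1-flox alleles with alphaMHC-Cre, a recombinase made in cardiomyocytes, IRS2KO mice carried IRS2-flox alleles with alphaMHC-Cre, and WT mice carried IRS2-flox alleles and no Cre. The deleted genes, Irs1 and Irs2, encode proteins that pass the signal of the insulin receptor on. There were 6 libraries in each of IRS1KO TAC, IRS1KO sham, IRS2KO TAC, IRS2KO sham and WT sham, and 5 in WT TAC, 35 in all. No group had Cre alone or IRS1-flox alone, so a knockout cannot be told apart from the Cre, nor IRS1KO from its floxed allele. WT and IRS2KO mice shared the IRS2-flox allele, and the allele named for IRS1KO mice was IRS1-flox. Every comparison of IRS1KO with WT or IRS2KO thus also compares different floxed alleles, which cannot be told apart from the deletion. The labels do not tie libraries to separate mice, and p-values therefore cover the spread between libraries, which may be technical.

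The libraries held 11707111 to 14609467 counted reads and 18599 to 20803 detected genes. Irs1 lay at 0 to 80.3 normalized counts in the 12 IRS1KO libraries and at 135 to 309.8 in the 11 WT libraries. The 80.3 was that of IRS1KO TAC replicate 5, and the other IRS1KO libraries lay at 43.8 or less. Replicate 1 of IRS1KO TAC and of IRS1KO sham lay at 0. Irs2 averaged 123 ± 14.4 in IRS2KO sham and 217 ± 174 in WT sham hearts (SD, n = 6 each), which did not pass the test (limma adjusted p = 1). After TAC it averaged 121 ± 41.2 in IRS2KO (n = 6) and 239 ± 68.6 in WT hearts (n = 5, adjusted p = 0.695). The labels do not name the deleted exons, and reads from exons that remain check nothing. All 9 cardiomyocyte markers lay above the filter. Their summed level was 426744 to 758426 in IRS1KO TAC and 891026 to 976744 in IRS1KO sham libraries, 466809 to 918826 in IRS2KO TAC and 912679 to 969300 in IRS2KO sham libraries, and 530522 to 893881 in WT TAC and 902649 to 1004614 in WT sham libraries. All 7 macrophage markers were called higher after TAC in each genotype, with sums of 5288 to 18305 in TAC and 2573 to 3570 in sham libraries, and summed fibroblast markers reached 34518 to 115034 in TAC and 10176 to 13715 in sham libraries. Called lower after TAC were 5 of the 9 cardiomyocyte markers in IRS1KO, 6 in IRS2KO (and 1 higher) and 7 in WT hearts, and 6, 6 and 5 of 6 endothelial markers, while 5, 5 and 6 of 7 fibroblast markers were called higher and 1, Dcn, lower in both knockouts. Mitochondrial genes held 16.5% to 23.6% of reads in IRS1KO TAC and 26.4% to 29.8% in IRS1KO sham libraries, 15.6% to 28.0% in IRS2KO TAC and 29.6% to 31.3% in IRS2KO sham libraries, and 21.8% to 27.0% in WT TAC and 29.2% to 30.6% in WT sham libraries. The part of these shifts in the results for the 8 genes, and for the other genes named below, was not tested. TAC libraries were placed on a scale from the mean sham profile (0) to the mean TAC profile (1) of their genotype. IRS1KO TAC replicate 5, IRS2KO TAC replicate 4 and WT TAC replicate 2 lay at 0.690, 0.508 and 0.551, nearest to sham in their groups. IRS2KO TAC replicate 1 lay at 0.691, and the remaining IRS2KO TAC libraries lay at 1.12 to 1.28.

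The first comparisons asked which of the 8 genes changed with pressure overload. Grk5 rose in all 3 genotypes, Adra1a, Adra1b, Adcy6 and Gnas fell in all 3, and Gnaq passed the test in none. Adcy5 fell in IRS2KO and WT hearts, and Adrb1 fell in IRS1KO hearts. In each genotype 6 of the 8 genes (75%) were called, 1 higher and 5 lower. Of all 13695 genes, 64.1% were called in IRS1KO (32.4% higher, 31.7% lower), 62.4% in IRS2KO (31.3% higher, 31.1% lower) and 54.9% in WT hearts (28.3% higher, 26.6% lower). The median log2 fold change of the 8 genes was -0.55 in IRS1KO, -0.44 in IRS2KO and -0.46 in WT hearts, beside -0.01 for all genes in each.

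TAC and sham libraries did not overlap for 1 higher and 2 lower members in IRS1KO, 1 higher and 2 lower in IRS2KO, and 0 higher and 3 lower in WT hearts. Over all genes the share without overlap was 20.5% higher and 16.7% lower in IRS1KO, 15.7% and 13.6% in IRS2KO, and 17.2% and 14.3% in WT hearts. With equal library totals in place of the authors' scaling, the median of all genes shifted up after TAC by 0.30 in IRS1KO, 0.33 in IRS2KO and 0.24 in WT hearts on the log2 scale. Calls then split into 7181 higher and 2164 lower in IRS1KO (4442 and 4335 as deposited), 7438 and 1890 in IRS2KO (4286 and 4260), and 6221 and 1583 in WT hearts (3877 and 3638). The members called then split into 2 higher and 4 lower in IRS1KO, 3 and 3 in IRS2KO, and 2 and 2 in WT hearts. Their split thus moved with the scaling, as did that of all genes. With equal totals, log2 fold changes in WT hearts relative to the median gene were -1.77 for Adra1a and -0.75 for Adra1b. Adrb1 stood there at -0.09, Grk5 at 0.84, Adcy5 at -0.36, Adcy6 at -0.67, Gnas at -0.54 and Gnaq at 0.14. In apex tissue, fewer cells of a type and less RNA per cell cannot be told apart.

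**Figure D1:**
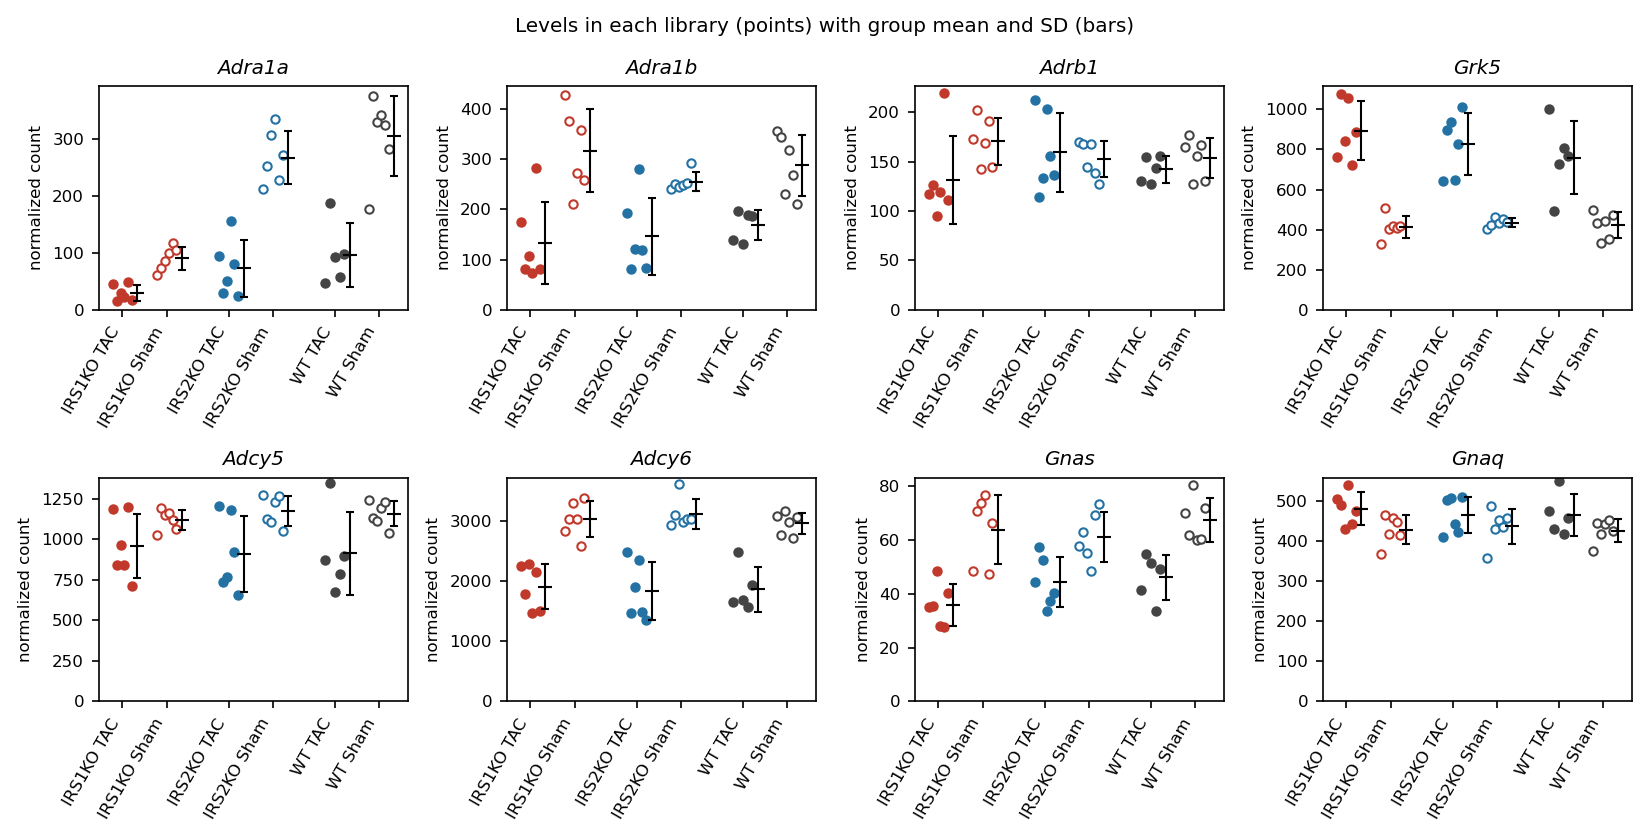
Normalized counts (vertical axes, from 0) of the 8 genes in each library, with TAC libraries filled and sham libraries open, and the mean ± SD of each group as a bar (n = 6, 5 for WT TAC). The Adra1a points of IRS1KO sham hearts, 60.3 to 117, lie below all those of WT sham hearts, 176 to 375.

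Adra1a (ENSMUSG00000045875, chromosome 14, 66635251 to 66771168, plus strand in GRCm38) encodes the alpha-1A adrenergic receptor. The IRS1KO TAC libraries ranged from 15.7 to 48.6 normalized counts with a median of 25.6, and the IRS1KO sham libraries from 60.3 to 117 with a median of 92.4. These groups did not overlap, and the mean was 3.06-fold lower in IRS1KO TAC hearts (log2 fold change -1.68, SE 0.34, limma adjusted p = 8.85e-05). The IRS2KO TAC libraries ranged from 23.9 to 156 with a median of 65.5, and the IRS2KO sham libraries from 213 to 334 with a median of 261. They did not overlap either, at a 3.68-fold lower mean (log2 fold change -2.13, SE 0.34, adjusted p = 3.93e-06). In WT TAC hearts the values were 46.7, 188, 91.9, 57.2 and 97.5, while the WT sham libraries ranged from 176 to 375 with a median of 327. Replicate 2 reached into the sham range and the other 4 lay below it, at a 3.17-fold lower mean (log2 fold change -1.79, SE 0.36, adjusted p = 0.000136).

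Adra1a was also the member that differed between genotypes. In sham hearts it averaged 90.1 ± 21.0 in IRS1KO and 305 ± 69.8 in WT (SD, n = 6 each), 3.38-fold lower in IRS1KO, and the libraries did not overlap (log2 fold change -1.74, SE 0.34, adjusted p = 0.00102). This was 1 of 8 members, where 4.65% of all genes were called, 2.65% were called lower and 3.45% lay lower without overlap. IRS2KO sham hearts, which carry the same Cre driver, averaged 267 ± 46.6. IRS1KO sham hearts lay 2.97-fold lower than these, again without overlap (log2 fold change -1.57, SE 0.34, adjusted p = 0.00252), in a comparison where 8.3% of all genes were called, 4.64% were called lower and 4.72% lay lower without overlap. Both comparisons use the same IRS1KO libraries. IRS2KO against WT sham hearts gave a log2 fold change of -0.17 with a 95% interval from -0.87 to 0.53 (adjusted p = 1).

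After TAC, Adra1a averaged 29.5 ± 14.2 in IRS1KO hearts (n = 6) and 96.3 ± 55.8 in WT hearts (n = 5). The level, 3.27-fold lower in IRS1KO, passed the test in the model of all groups (log2 fold change -1.64, SE 0.36, adjusted p = 0.00458), where 4.7% of all genes were called and 2.68% called lower. It did not pass with these groups fitted alone (adjusted p = 0.0596), and WT TAC replicate 1 at 46.7 lay within the IRS1KO range. Against IRS2KO TAC hearts, at 72.6 ± 49.4, IRS1KO TAC hearts did not pass the test (log2 fold change -1.12, SE 0.34, adjusted p = 0.0814), although DESeq2 called them lower (adjusted p = 0.00948), and limma did without IRS1KO TAC replicate 5 (0.0348) or IRS2KO TAC replicate 2 (0.0338) or 6 (0.0154). In that comparison 2.36% of all genes were called.

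The fall after TAC was not shown to differ between genotypes. The TAC response of Adra1a was 0.11 in IRS1KO minus WT on the log2 scale (95% interval -0.91 to 1.12, adjusted p = 0.969), -0.35 in IRS2KO minus WT (-1.36 to 0.66, adjusted p = 0.968) and 0.45 in IRS1KO minus IRS2KO (-0.53 to 1.44, adjusted p = 0.821). The group means ran, high to low, from WT sham through IRS2KO sham, WT TAC, IRS1KO sham and IRS2KO TAC to IRS1KO TAC. WT and IRS2KO sham libraries overlapped, as did those of WT TAC, IRS1KO sham and IRS2KO TAC, and those of IRS2KO TAC and IRS1KO TAC. IRS1KO hearts without pressure overload had Adra1a levels within the range of WT hearts with it.

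None of the 9 cardiomyocyte markers was called between IRS1KO and WT sham hearts, and the ranges of their sums, given above, overlapped. The fibroblast marker Pdgfra was called lower in IRS1KO against WT and against IRS2KO sham hearts, and against WT after TAC Postn and the pericyte marker Cspg4 were called higher and Dcn lower in IRS1KO. Of 5 atrial markers 3 were tested, and in IRS1KO against IRS2KO sham hearts Stard10 was called higher and Nr2f1 lower. The part of these cells in the Adra1a difference was not tested. Within 1 megabase of Adra1a on either side, 17 other genes were tested, of which 3 (Bnip3l, Dock5 and Ptk2b) were called lower and 0 higher in IRS1KO against WT sham hearts. Within 5 megabases 4 of 69 were called higher and 8 lower. Against IRS2KO sham hearts 5 of the 17 (Bnip3l, Dock5, Ptk2b, Trim35 and Kctd9) were called lower and 0 higher. Within 5 megabases 4 of 69 were called higher and 12 lower there. Of all genes, 2.65% were called lower against WT and 4.64% against IRS2KO in sham hearts. After TAC none of these 5 genes was called. Then 1 of the 17 (Scara5) was called lower in IRS1KO against WT and 0 of the 17 in IRS1KO against IRS2KO. Within 5 megabases 7 of 69 were called higher and 7 lower against WT after TAC, and 3 and 4 against IRS2KO. In the same 5-megabase span in IRS1KO against WT sham hearts, 0 of 32 genes were called around Adra1b and 0 of 28 around Grk5. Around Adrb1 0 of 44 were higher and 1 lower, and around Gnaq 0 of 36 and 1. Around Adcy5 5 of 85 were higher and 2 lower, around Adcy6 1 of 113 and 2, and around Gnas 0 of 43 and 3. Irs1 lies on chromosome 1, not with Adra1a on 14. The part of linked sequence in the genotype difference of Adra1a was not tested. With equal library totals the calls in IRS1KO against WT split into 396 higher and 232 lower in sham hearts (274 and 363 as deposited) and 653 and 283 after TAC (276 and 367), where the median gene shifted by 0.14. Against IRS2KO they split into 780 and 318 in sham hearts (502 and 635) and 238 and 147 after TAC (148 and 175). Relative to the median gene, Adra1a stood at -1.74 in IRS1KO against WT sham hearts under that scaling.

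Adra1b (ENSMUSG00000050541, chromosome 11, 43774606 to 43901210, minus strand) encodes the alpha-1B receptor. Per kilobase of exon it stood above Adra1a in every library: the ratio of Adra1a to Adra1b had a median of 0.0898 in IRS1KO TAC and 0.134 in IRS1KO sham libraries, 0.176 in IRS2KO TAC and 0.374 in IRS2KO sham libraries, and 0.202 in WT TAC and 0.444 in WT sham libraries, and the highest ratio was 0.555. RefSeq's promoter windows matched 6 of the 8 members, with a pair of starts for Adra1b. The windows around them (250 bases before to 50 after each start, GRCm38.p6) are shown because the gene fell in all 3 genotypes and the windows differ, with 42.3% G and C at the outer start, chr11:43901188-43901487, and 71.3% at the inner start, chr11:43836440-43836739, both on the minus strand. The median over 32851 such windows was 52.7%.
Adra1b outer start: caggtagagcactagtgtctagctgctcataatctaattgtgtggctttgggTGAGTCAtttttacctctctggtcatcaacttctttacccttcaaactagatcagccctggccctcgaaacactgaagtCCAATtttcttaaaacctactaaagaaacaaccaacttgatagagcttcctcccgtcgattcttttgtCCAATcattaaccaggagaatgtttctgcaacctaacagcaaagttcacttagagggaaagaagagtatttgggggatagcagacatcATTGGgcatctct
Adra1b inner start: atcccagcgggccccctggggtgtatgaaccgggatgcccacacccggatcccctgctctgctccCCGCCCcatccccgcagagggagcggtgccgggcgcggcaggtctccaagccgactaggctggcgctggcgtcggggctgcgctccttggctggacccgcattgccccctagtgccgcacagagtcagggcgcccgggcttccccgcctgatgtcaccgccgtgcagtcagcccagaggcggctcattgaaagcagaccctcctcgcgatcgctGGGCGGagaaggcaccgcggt
Capitals mark matches on either strand to 5 motifs that were searched: the CRE core TGACG, the AP-1 site TGANTCA, the GC box GGGCGG, the CCAAT box CCAAT and the TATA box TATAAA. The outer window held 1 AP-1 match and 3 CCAAT matches, and the inner window 2 GC boxes. Of all windows, 20.8% held the CRE core, 7.81% the AP-1 site, 35.7% the GC box, 37.4% the CCAAT box and 13.6% the TATA box. A match is letters in a window, and gene counts do not tell which start was used.

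The IRS1KO TAC libraries held 73.6 to 281.5 normalized counts of Adra1b with a median of 93.9, and the IRS1KO sham libraries 211 to 427 with a median of 315 (2.38-fold lower after TAC, log2 fold change -1.39, SE 0.27, adjusted p = 3.7e-05). The IRS2KO TAC libraries held 81.6 to 279.9 with a median of 119, and the IRS2KO sham libraries 241.1 to 292 with a median of 250.02 (1.75-fold lower, log2 fold change -0.94, SE 0.27, adjusted p = 0.00272). In both knockouts 1 TAC library reached the sham range, the same that lay nearest to sham over all genes. The WT TAC libraries held 139, 196, 132, 189 and 187, against 210.3 to 356 with a median of 293.5 in WT sham libraries. These groups did not overlap (1.71-fold lower, log2 fold change -0.76, SE 0.28, adjusted p = 0.0215), but the call ended without WT TAC replicate 1 (adjusted p = 0.0543) or replicate 3 (0.0597) and with equal library totals (0.0716). Between genotypes Adra1b did not pass the test: in IRS1KO against WT hearts the log2 fold change was 0.12 in sham (95% interval -0.42 to 0.67) and -0.51 after TAC (-1.07 to 0.06, adjusted p = 0.302), which passed with library weights (0.0201).

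Adrb1 (ENSMUSG00000035283, chromosome 19, 56722199 to 56733113, plus strand) encodes the beta-1 receptor, the main beta receptor of cardiomyocytes. In IRS1KO hearts it ranged from 95.3 to 220.1 normalized counts with a median of 118 after TAC and from 143 to 202 with a median of 171 in sham libraries. Of the IRS1KO TAC libraries 5 lay below every sham library and replicate 5 lay above them all. The difference passed the test (log2 fold change -0.42, SE 0.15, adjusted p = 0.0165), though not without IRS1KO TAC replicate 3 (adjusted p = 0.0567). In IRS2KO hearts it ranged from 114 to 213 with a median of 146 after TAC and from 128 to 170 with a median of 156 in sham libraries (log2 fold change 0.03, 95% interval -0.27 to 0.34, adjusted p = 0.863). The WT TAC libraries lay at 130.2, 155, 127, 144 and 156, against 127 to 177 with a median of 161 in WT sham libraries (log2 fold change -0.11, 95% interval -0.43 to 0.22, adjusted p = 0.589). Both of these pairs overlapped.

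With equal library totals the Adrb1 call in IRS1KO ended (adjusted p = 0.464) and Adrb1 was instead called higher after TAC in IRS2KO hearts (log2 fold change 0.37, adjusted p = 0.0134). Relative to the median gene the values under that scaling were -0.41 in IRS1KO and 0.04 in IRS2KO. The TAC response of IRS1KO minus that of IRS2KO was -0.45 (95% interval -0.88 to -0.02), which did not pass after adjustment (limma adjusted p = 0.417). Between the TAC groups, IRS1KO minus IRS2KO was -0.29 (95% interval -0.60 to 0.01, adjusted p = 0.443), and it passed without IRS1KO TAC replicate 5 (0.0499).

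**Figure D2:**
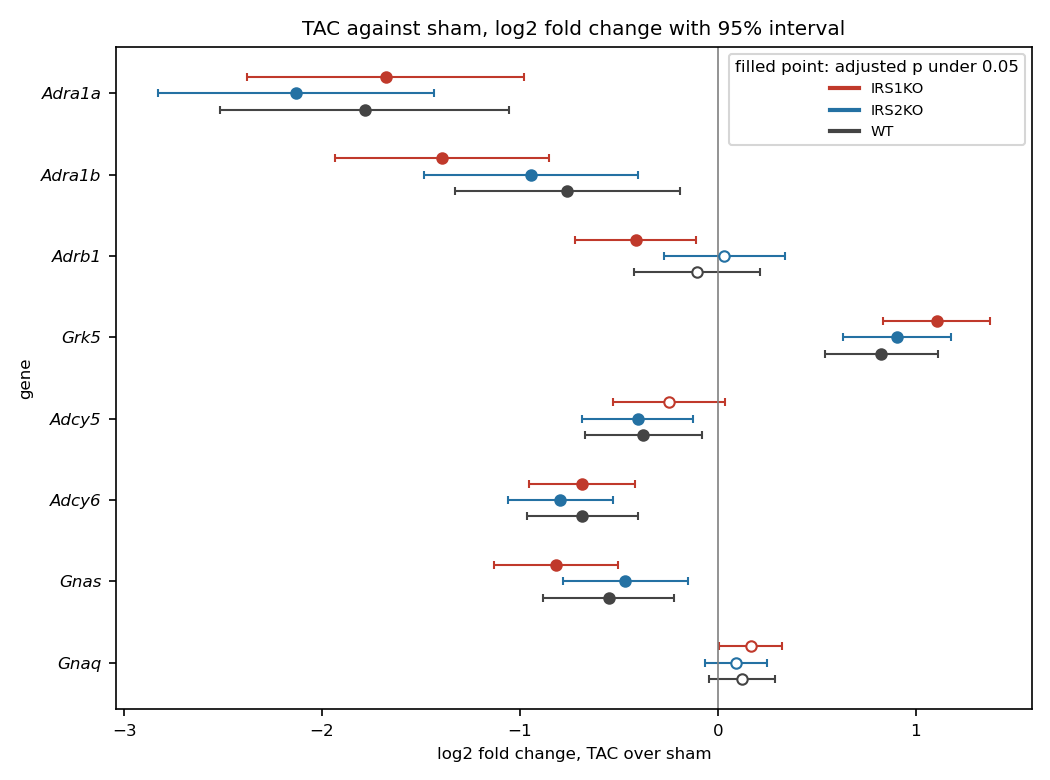
Log2 fold change of TAC over sham (horizontal axis) with its 95% interval for each gene in IRS1KO, IRS2KO and WT hearts, where filled points passed an adjusted p of 0.05. Adra1a lies farthest to the left in every genotype, from -1.68 in IRS1KO to -2.13 in IRS2KO, and Grk5 is the gene to the right of 0 that passed.

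Gnas (ENSMUSG00000027523, chromosome 2, 174284320 to 174346744, plus strand) encodes the stimulatory alpha subunit along with other transcripts of its locus. Its normalized counts ranged from 27.8 to 48.6 in IRS1KO TAC and from 47.4 to 76.5 in IRS1KO sham libraries (log2 fold change -0.82, SE 0.15, adjusted p = 3.14e-05). They ranged from 33.6 to 57.4 in IRS2KO TAC and from 48.5 to 73.4 in IRS2KO sham libraries (log2 fold change -0.47, SE 0.15, adjusted p = 0.0093). In both knockouts the ranges overlapped. The values were 41.3, 54.7, 51.4, 33.7 and 49.2 in WT TAC hearts, against 60.1 to 80.5 with a median of 65.9 in WT sham libraries, without overlap (log2 fold change -0.55, SE 0.16, adjusted p = 0.00491). With equal library totals the calls in IRS2KO (adjusted p = 0.499) and WT (0.16) ended, and relative to the median gene the values were -0.46 and -0.54.

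These Gnas counts are uncertain. The gene is known to be abundant in most tissues, yet no library exceeded 80.5 normalized counts, and whether the authors' counting left Gnas reads out was not tested, so the called falls are those of the reads that were counted. Of its 11186 exon bases, 1469 are shared with exons of the opposite-strand gene model Gm20721, and these are 59.2% of the Gnas exon bases that lie within Gm20721. Of the 11186, 988 are shared with the opposite-strand gene Nespas, and these may include bases already counted for Gm20721. Gm20721 and Nespas averaged 0.118 and 0.269 normalized counts. The library kit keeps the strand, and the sources used here do not say whether the counting used it.

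Gnaq (ENSMUSG00000024639, chromosome 19, 16132831 to 16387463, plus strand) encodes the alpha subunit that couples alpha-1 receptors to phospholipase C. It held 429.7 to 539.7 normalized counts in IRS1KO TAC and 367 to 463 in IRS1KO sham libraries, and 409 to 509.6 in IRS2KO TAC and 357 to 486 in IRS2KO sham libraries. The WT TAC values were 474, 429, 548, 416 and 457, against 374.5 to 452 in WT sham libraries. All 3 pairs of groups overlapped. The log2 fold changes were 0.17 in IRS1KO (95% interval 0.01 to 0.33, adjusted p = 0.061), 0.09 in IRS2KO (-0.07 to 0.25, adjusted p = 0.311) and 0.12 in WT hearts (-0.04 to 0.29, adjusted p = 0.205). With equal library totals all 3 were called higher (adjusted p = 0.000419 in IRS1KO, 0.00121 in IRS2KO and 0.00678 in WT), at 0.18, 0.10 and 0.14 relative to the median gene. The IRS1KO difference also passed without IRS1KO TAC replicate 3 (0.0338) or 5 (0.0423), without IRS1KO sham replicate 2 (0.0433) or 4 (0.0492), and with library weights (0.0187).

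Adcy6 (ENSMUSG00000022994, chromosome 15, 98589973 to 98610076, minus strand) and Adcy5 (ENSMUSG00000022840, chromosome 16, 35154877 to 35305738, plus strand) encode the main adenylyl cyclases of cardiomyocytes. Adcy6 ranged from 1467 to 2288 normalized counts in IRS1KO TAC and from 2583 to 3386 in IRS1KO sham libraries, and from 1361 to 2479 in IRS2KO TAC and from 2935 to 3610.5 in IRS2KO sham libraries. In WT TAC hearts the values were 1657, 2483, 1680, 1569 and 1939, against 2714 to 3158 with a median of 3025 in WT sham libraries. In no genotype did the groups overlap. The log2 fold changes were -0.69 in IRS1KO (SE 0.13, adjusted p = 3.59e-05), -0.80 in IRS2KO (SE 0.13, adjusted p = 5.33e-06) and -0.68 in WT hearts (SE 0.14, adjusted p = 0.000129). Of the 6782 Adcy6 exon bases, 605 are shared with an antisense gene model, Gm29331, which averaged 0.0617 normalized counts.

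Adcy5 showed smaller differences. It ranged from 712 to 1198 in IRS1KO TAC and from 1023 to 1193 in IRS1KO sham libraries (log2 fold change -0.25, 95% interval -0.53 to 0.03, adjusted p = 0.116, and 0.0484 without IRS1KO TAC replicate 5), and from 653 to 1207 in IRS2KO TAC and from 1049.6 to 1272 in IRS2KO sham libraries (log2 fold change -0.41, SE 0.14, adjusted p = 0.0118). In WT TAC hearts the values were 872, 1346, 677, 783 and 896, against 1041 to 1241 with a median of 1161 in WT sham libraries, so that WT TAC replicate 2 lay above every WT sham library (log2 fold change -0.38, SE 0.15, adjusted p = 0.0286). The WT call ended with edgeR (adjusted p = 0.0553), with DESeq2 (0.058), with equal library totals (0.315), and without WT TAC replicate 1, 3 or 5 (0.0518, 0.121, 0.0765) or WT sham replicate 1 or 5 (0.0513, 0.0504). The IRS2KO call ended with equal library totals (0.54), and relative to the median gene Adcy5 stood there at -0.39.

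Per kilobase of exon, Adcy6 had the highest mean of the 8 genes in every group, at 275 in WT TAC and 437 in WT sham hearts, where Adcy5 stood at 127 and 161. The ratio of Adcy5 to Adcy6 per kilobase was 0.476 ± 0.0547 in IRS1KO TAC and 0.351 ± 0.0389 in IRS1KO sham hearts, 0.470 ± 0.0651 in IRS2KO TAC and 0.359 ± 0.0469 in IRS2KO sham hearts, and 0.459 ± 0.0525 in WT TAC (n = 5) and 0.371 ± 0.0390 in WT sham hearts (SD, n = 6 otherwise). The ratio was not tested.

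**Figure D3:**
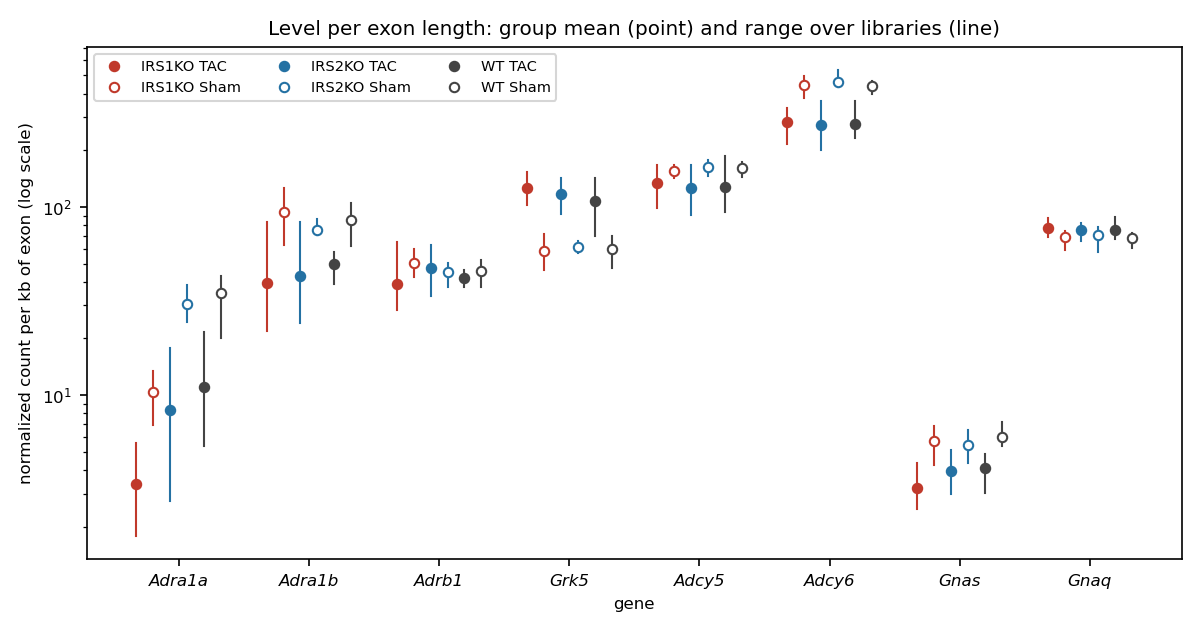
Normalized counts per kilobase of exon (vertical log axis) of each gene in the 6 groups, with the group mean as a point (TAC filled, sham open) and the range over libraries as a line. Adcy6 is highest in every group, and Adra1a is at 3.38 in IRS1KO TAC, 10.3 in IRS1KO sham, 11.03 in WT TAC and 34.9 in WT sham hearts.

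Grk5 (ENSMUSG00000003228, chromosome 19, 60889749 to 61095968, plus strand) encodes a G protein-coupled receptor kinase abundant in the heart, and it was the member that rose. It ranged from 725 to 1079 normalized counts in IRS1KO TAC and from 326 to 506 in IRS1KO sham libraries, and from 644 to 1012 in IRS2KO TAC and from 402 to 463 in IRS2KO sham libraries, without overlap. In WT TAC hearts the values were 1001, 493, 726, 807 and 769, against 335 to 496 with a median of 437 in WT sham libraries, and of these WT TAC replicate 2 lay within the sham range. The means were 2.16-fold higher after TAC in IRS1KO (log2 fold change 1.10, SE 0.13, limma adjusted p = 3.41e-08), 1.90-fold in IRS2KO (0.91, SE 0.13, adjusted p = 1.08e-06) and 1.80-fold in WT hearts (0.82, SE 0.14, adjusted p = 1.54e-05). The response of IRS1KO minus that of WT was 0.28 (95% interval -0.11 to 0.67, adjusted p = 0.672).

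The window around the RefSeq start of Grk5, chr19:60889499-60889798 on the plus strand, is shown beside the Adra1b windows as that of the gene that rose.
Grk5 start: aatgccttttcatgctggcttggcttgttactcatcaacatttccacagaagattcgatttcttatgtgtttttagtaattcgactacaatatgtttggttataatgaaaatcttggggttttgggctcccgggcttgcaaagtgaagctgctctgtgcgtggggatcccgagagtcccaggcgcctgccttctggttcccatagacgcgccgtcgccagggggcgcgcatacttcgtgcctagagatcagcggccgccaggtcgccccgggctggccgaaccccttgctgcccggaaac
It held 54.3% G and C and none of the 5 motifs, so there are no capitals in it, which says only that these letters are not in this window.

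**Figure D4:**
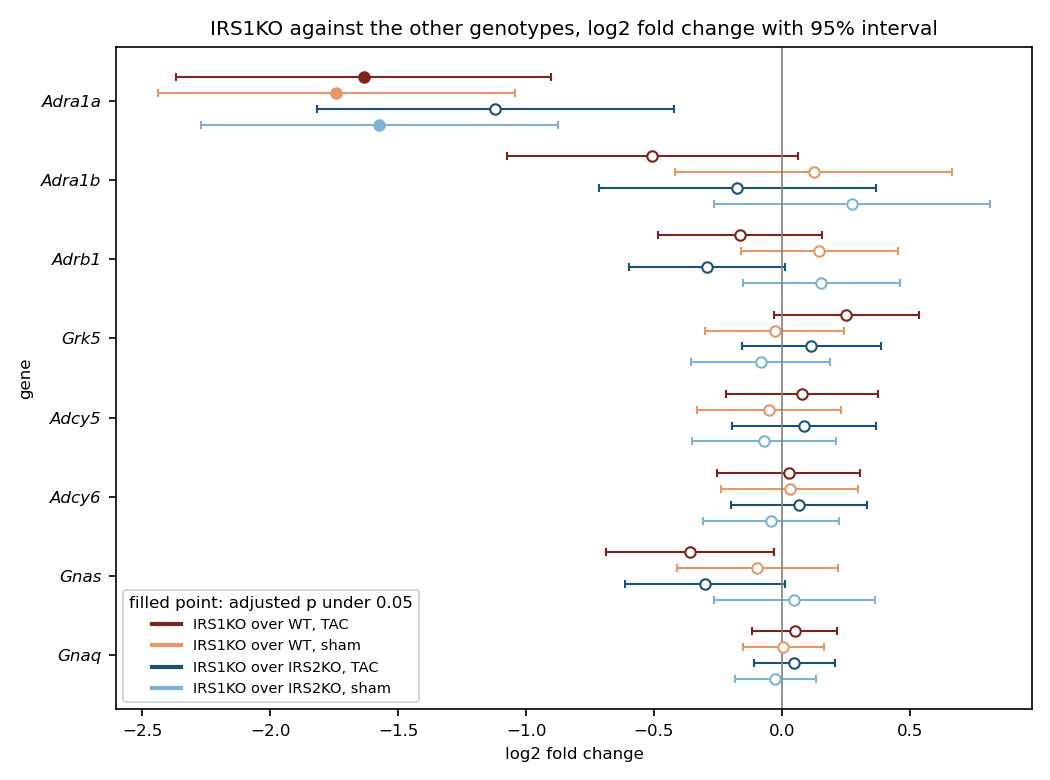
Log2 fold change of IRS1KO over WT or IRS2KO (horizontal axis) after TAC and in sham hearts, with 95% intervals, where filled points passed an adjusted p of 0.05. Adra1a is the gene with filled points, from -1.57 to -1.74, and the intervals of the other 7 genes include 0 in sham hearts.

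Apart from Adra1a, no member was called between genotypes. Between IRS2KO and WT, 0 of 8 members were called by limma, edgeR or DESeq2 in either operation, and 0 had an unadjusted p under 0.05. Of all genes, limma and edgeR called 0% there, DESeq2 called 3 in sham hearts and 0 after TAC, and 534 in sham hearts and 931 after TAC had an unadjusted p under 0.05. In the contrasts of the TAC response 0 members were called by any of these tools, against 0.11% of all genes for IRS1KO minus WT, 0% for IRS2KO minus WT and 0.409% for IRS1KO minus IRS2KO, and Adrb1 was the 1 member with an unadjusted p under 0.05, in the last of these. The intervals bound the differences. In IRS1KO against WT sham hearts, Adrb1 stood at 0.15 (-0.16 to 0.45), Grk5 at -0.03 (-0.30 to 0.24) and Adcy6 at 0.03 (-0.24 to 0.30) on the log2 scale. After TAC, Gnas stood at -0.36 in IRS1KO against WT (-0.69 to -0.03, limma adjusted p = 0.195) and Grk5 at 0.25 (-0.03 to 0.54, adjusted p = 0.306).

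The genes whose levels over the 35 libraries lay closest to each member were sought among 9136 genes, by the root-mean-square difference of centred log2 values. The closest to Adra1a was Dgat2, which encodes an enzyme of triglyceride synthesis, at 0.47, against a spread of 1.33 for Adra1a itself. Dgat2 averaged 941 normalized counts in IRS1KO TAC and 3059 in IRS1KO sham hearts, 2010.2 in IRS2KO TAC and 5177 in IRS2KO sham hearts, and 2397 in WT TAC and 5395 in WT sham hearts. The closest to Adra1b were Coq10a and Pln, which encodes the calcium pump inhibitor phospholamban, at 0.26 each. The closest to Grk5 were Tmem167 and Arf4 at 0.16 and 0.17, and to Adcy6 they were Rbm20, which encodes a splicing regulator of the heart, and Shroom4 at 0.12 and 0.13. For Adcy5 they were Cog6 and Mlip at 0.13 each, for Adrb1 Plpp7 at 0.17 and Rgs3 at 0.19, for Gnas Dock6 at 0.25 and 5031425E22Rik at 0.26, and for Gnaq Sel1l and Smchd1 at 0.09 each.

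The rest of the pathway was read from 14 lists of 144 genes, of which 123 lay above the filter. After TAC 38 were called higher and 44 lower in IRS1KO, 40 and 44 in IRS2KO, and 37 and 43 in WT hearts, with a median log2 fold change of -0.10, -0.11 and -0.07. Those called were 66.7%, 68.3% and 65.0% of the 123, beside 64.1%, 62.4% and 54.9% of all genes. With equal library totals the calls split into 60 higher and 27 lower in IRS1KO, 62 and 27 in IRS2KO, and 54 and 23 in WT hearts. Of the 6 other adrenergic receptors, 3 lay below the filter. Adra2b, an alpha-2 receptor, was called lower in all 3 genotypes, with means of 13.6 in WT TAC and 19.4 in WT sham hearts (adjusted p = 0.0444).

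Among the 6 other receptor kinases and arrestins, 4 were called higher after TAC and 0 lower in each genotype. The beta-arrestin genes rose in all 3, beside the macrophage markers given above, whose part in this was not tested. Arrb1 was 2.00-fold higher in IRS1KO, 1.62-fold in IRS2KO and 1.54-fold in WT TAC hearts (585 and 381 in WT TAC and WT sham, adjusted p = 1.05e-05), and Arrb2 2.78-fold, 3.10-fold and 2.71-fold higher. Grk3, another receptor kinase, was lower in IRS1KO hearts, at 226 in IRS1KO and 493 in WT sham hearts (2.18-fold, adjusted p = 1.84e-08) and at 282 in IRS1KO and 589 in WT hearts after TAC (2.09-fold, adjusted p = 1.74e-07). The Grk3 libraries of IRS1KO and WT did not overlap within an operation, nor did those of IRS1KO and IRS2KO (adjusted p = 1.79e-09 in sham and 1.39e-05 after TAC). Arrb1 was likewise lower in IRS1KO sham hearts, at 249 against 381 in WT (1.53-fold, limma adjusted p = 3.15e-05). Neighbours of Grk3 and Arrb1 were not examined, and the part of linked sequence in these genotype differences was not tested.

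Of the 5 other cyclases tested, Adcy7 was 3.97-fold higher after TAC in IRS1KO, 3.95-fold in IRS2KO and 3.43-fold in WT hearts (693 in WT TAC and 202 in WT sham, adjusted p = 3.68e-08), beside the macrophage markers given above, whose part in this was not tested. Adcy1 was 1.91-fold lower in WT TAC hearts (adjusted p = 0.00295). Of 9 other alpha subunits, 5 were called higher and 2 lower in each genotype. Gnai2 and Gnai3, inhibitory subunits that oppose Gnas at the cyclases, were 1.51-fold and 1.79-fold higher in WT TAC hearts (adjusted p = 6.36e-06 and 2.03e-05), and Gna12 was 1.47-fold lower (adjusted p = 1.69e-06). Of 9 beta and gamma subunits, 4 were higher and 1 lower in WT hearts. That 1 was Gnb3, 4.39-fold lower at 33.9 in WT TAC and 149 in WT sham hearts (adjusted p = 3.19e-06), and 5.71-fold lower in IRS1KO and 4.54-fold in IRS2KO TAC hearts.

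Downstream of cyclic AMP, Prkar1a, a regulatory subunit of the cyclic AMP-dependent kinase, was 1.78-fold higher in WT TAC hearts (adjusted p = 4.64e-08), and Akap7, which anchors that kinase, was 1.71-fold lower (adjusted p = 1.19e-06), among 3 higher and 6 lower of 15 such genes. Among 15 phosphodiesterases, which break cyclic nucleotides down, 3 were higher and 7 lower in WT TAC hearts. Pde1a was 2.25-fold higher (adjusted p = 8.31e-08) and Pde4c 3.25-fold lower (adjusted p = 0.000228). Pde4b was the 1 pathway gene called in the response of IRS1KO minus IRS2KO (log2 -0.64, adjusted p = 0.0495), at 415 in IRS1KO TAC and 411 in IRS1KO sham hearts against 468 in IRS2KO TAC and 296 in IRS2KO sham hearts. That call ended with a pseudocount of 0.5, without a filter, with equal library totals, with a replicate block, and without most single libraries. A list of 8 genes held substrates of the cyclic AMP-dependent kinase and a phosphatase inhibitor, and 1 was higher and 5 lower in WT TAC hearts. Rrad, a small GTP-binding protein that restrains calcium channels, was 1.75-fold higher (limma adjusted p = 0.000614), and Pln was 1.75-fold lower (limma adjusted p = 0.00109).

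Of 15 genes of the phospholipase C branch, 3 were higher and 7 lower in WT TAC hearts, with Prkcd, a protein kinase C, 2.49-fold higher (adjusted p = 3.69e-06) and Prkd1 1.63-fold lower (adjusted p = 0.000816). Of 13 RGS genes, whose proteins speed the shut-off of G proteins, 6 were higher and 4 lower, with Rgs10 2.55-fold higher (adjusted p = 2.39e-05). Of 8 genes that make, carry or break down catecholamines, 2 were higher and 4 lower. Maob, a monoamine oxidase, was 2.35-fold lower (243 in WT TAC and 572 in WT sham hearts, adjusted p = 4.41e-05), and Maoa 1.36-fold higher (adjusted p = 0.0176). After TAC, Slc22a3, an extraneuronal monoamine transporter, was 4.26-fold lower in IRS1KO than in WT hearts (22.8 and 97.2, adjusted p = 0.00391). Chrm2, the muscarinic receptor through which the vagus slows the heart, did not pass the test after TAC in any genotype and was 1.25-fold higher in IRS1KO than in WT sham hearts (1783 and 1431, adjusted p = 0.0404). In all, 2 pathway genes were called higher and 3 lower in IRS1KO against WT sham hearts, and 2 and 5 after TAC, where 14 were called without IRS1KO TAC replicate 5. These were 4.07% and 5.69% of the 123, near the 4.65% and 4.7% of all genes. Between IRS2KO and WT, limma, edgeR and DESeq2 called 0 of 123, with 6 in sham hearts and 10 after TAC at an unadjusted p under 0.05.

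**Figure D5:**
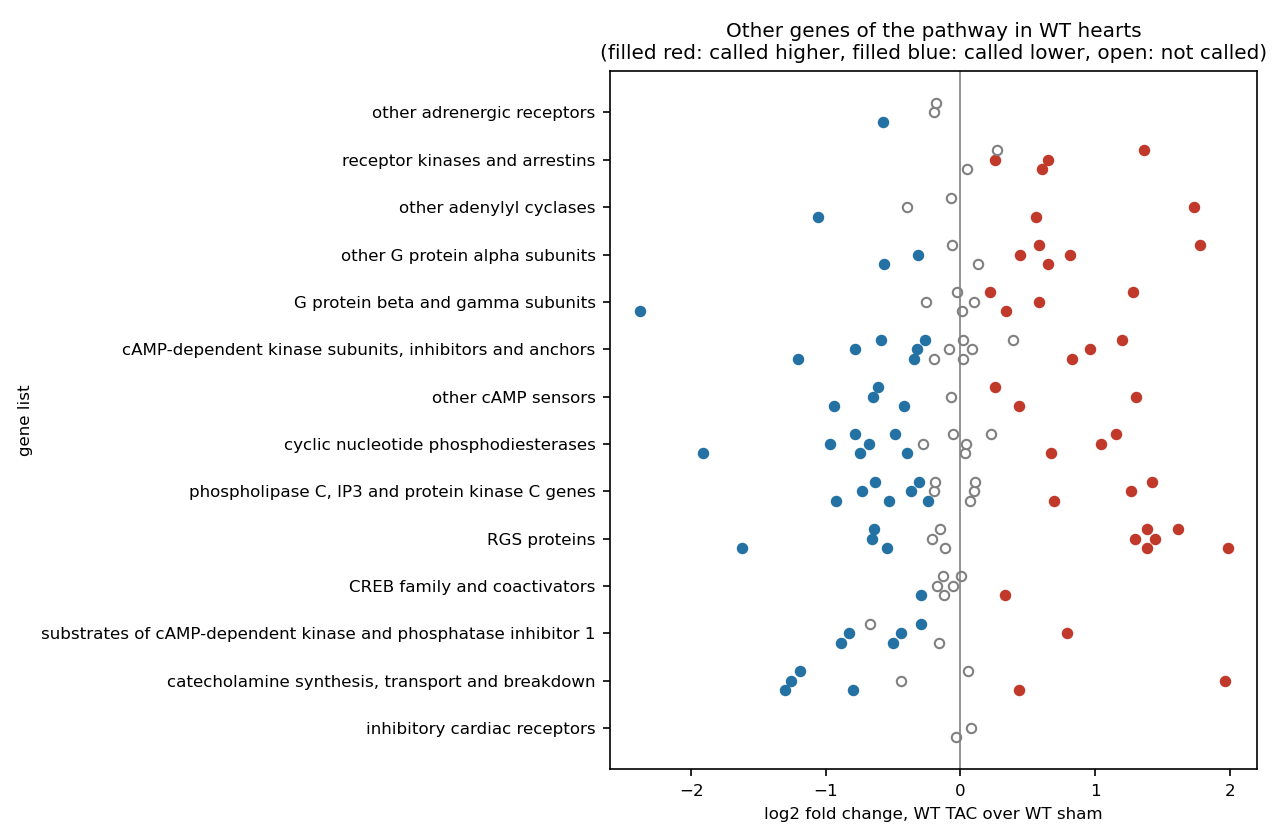
Log2 fold change of WT TAC over WT sham hearts (horizontal axis) for the 123 tested genes of 14 lists (down the page), 1 point a gene, red for the 37 called higher, blue for the 43 called lower and open for the others. Arrb1 and Arrb2 lie to the right among the kinases and arrestins, at 0.61 and 1.36, and Gnb3 is the point farthest to the left, at -2.38.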

How the data were processed

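Stranded mRNA libraries were made from apex RNA, per the labels' protocols. A normalized count signal per gene and library was deposited by the authors, per the file headers. The submitters' processing notes name HISAT2 2.0.6, HTSeq 0.7.1, DESeq2 and the build GRCm38. Not given in the sources used here are the counting options and the annotation version. Gene symbols and exon lengths came from GENCODE vM21, which held 26904 of 27012 identifiers. Deposited signals were whole multiples of 1 value in each library (100% of values, tolerance 0.001), so reads could be recovered. Between libraries of a group, chi-square per degree of freedom was at least 2.41 over 85 pairs, and each library was counted once.

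On log2(value + 1), which understates changes of low genes, limma 3.58.1 (R 4.3.3, trend, robust) fitted 1 mean for each of 6 groups and 12 two-sided contrasts over genes averaging 10 or more, with Benjamini-Hochberg adjustment within a contrast at 0.05. Folds are ratios of group means. Other settings tried were pseudocounts of 0.5 and 5, no filter, averages of 50 or more, equal library totals, quantile scaling, fits of single contrasts, library weights, a replicate block, edgeR 4.0.16 and DESeq2 1.42.0 on recovered reads, and each library left out in turn. A fit that left out, in each genotype, the TAC library closest to sham (3 in all) was chosen once the data had been seen. That fit kept IRS2KO TAC replicate 1. The fit was tested on simulated data. A first criterion, on the sign of all changed genes, was not met for the smaller simulated fold in 1 of the contrasts simulated. It was then replaced by a criterion on the sign of called genes and on false calls, which was met. The new criterion allowed a share of false calls up to 2 times the threshold of 0.05. Genes were named by rule: the members, Irs1, Irs2, the 2 closest genes to each member, and in each list the 4 with the smallest p in WT and those called between genotypes, of which examples are given and some are not reported here. Neighbours of Adra1a were named after their values were seen. Members and lists were chosen with earlier results of these data known.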

Additional observations from a re-analysis of the deposited data

Results flagged for a closer look

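Among the 48 sets of libraries formed by the 8 genes and 6 groups, 3 held a library far from the others of its group by Dixon's test, where chance gives about 1 in 20. Adrb1 stood at 220.1 normalized counts in IRS1KO TAC replicate 5, against 95.3 to 126 in the other 5 libraries, and over all genes that library lay nearest to sham in its group. Adra1b stood at 292 in IRS2KO sham replicate 6, against 241.1 to 253 in the other 5. Adcy6 stood at 3610.5 in IRS2KO sham replicate 3, against 2935 to 3101 in the other 5.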

How the results depend on the processing

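Calls rest on 5 or 6 libraries a group, on low counts for Gnas and on the authors' scaling. Adra1a was also low in IRS1KO TAC hearts, at a mean of 29.5 with a lowest library of 15.7, below the 35.9 of Gnas there. Over 39 results of the 8 genes and 966 values under the alternatives, 915 kept their direction and their side of the threshold, 17 lost the call, 20 gained it and 14 changed direction. No alternative ended the calls of Adra1a, Grk5 or Adcy6 after TAC, or of Adra1a in IRS1KO sham hearts. The number of members called in IRS1KO against WT after TAC was 1, and it was 0 in a fit of that contrast alone and 2 with library weights. In IRS1KO against IRS2KO after TAC it was 0, and it was 1 with DESeq2 and 0 to 2 when a library was left out. Adrb1 after TAC reversed in IRS2KO with quantile scaling (-0.067), library weights (-0.11), without the 3 TAC libraries nearest to sham (-0.045) and when a library was left out (-0.058 to 0.12), and in WT with equal library totals (0.15). Adcy5 in IRS1KO reversed with equal totals (0.060). The Adra1a response of IRS1KO minus WT reversed with edgeR (-0.0038) and when a library was left out (-0.11 to 0.39). With equal totals the called falls of Prkaca in IRS1KO (0.010) and IRS2KO (0.023), and of Pde8a (0.13) and Crebbp (0.032) in IRS2KO, reversed. The cause was not tested.

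Counts of calls over all genes moved by over 1.5 times in these contrasts. IRS1KO against WT gave 637 calls in sham hearts, 1483 when fitted alone and 1795 with library weights, and 643 after TAC, 228, 2183 and 369 to 1313 when a library was left out. IRS1KO against IRS2KO gave 1137 in sham hearts, 2148 and 2575, and 323 after TAC, 140 when fitted alone and 504 with DESeq2. IRS2KO against WT gave 0 in sham hearts, 31 when fitted alone, 23 with library weights, 3 with DESeq2 and 1 without a filter, and 0 after TAC, 2 without a filter. The response contrasts gave 15 calls for IRS1KO minus WT, 7 with equal totals, 46 with DESeq2, 52 without the 3 TAC libraries, 192 with library weights and 2 to 53 when a library was left out. For IRS1KO minus IRS2KO they gave 56, 21 when fitted alone, 25 with equal totals, 26 without a filter, 131 without the 3 TAC libraries, 138 with library weights, 153 with DESeq2 and 17 to 180. Pathway genes called in IRS1KO against WT were 5 in sham hearts, 2 without WT sham replicate 5 and 21 with library weights, and 7 after TAC, 4 when fitted alone, 14 with equal totals and 19 with library weights. For IRS2KO against WT in sham hearts they were 0, and 2 when fitted alone.

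Whether replicate numbers pair the libraries was not settled. Of 51 same-numbered pairs, 24 had correlated deviations over 0.1 (range -0.60 to 0.57). Between sham groups the correlations ran from -0.013 to 0.19 for IRS1KO and WT and from 0.025 to 0.25 for IRS2KO and WT. For IRS1KO and IRS2KO sham libraries they ran from 0.068 to 0.35. What a shared number stands for was not tested. With the replicate block Gnaq was called higher in IRS1KO TAC hearts (0.17, adjusted p = 0.0435), and no other member's call changed.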
